A study of Stylosanthes guianensis with 6 samples.

Results

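Ethylene signalling and AP2-domain transcription factors were examined in roots of stylo (Stylosanthes guianensis), a tropical forage legume, under phosphate deficiency. The 34 unigenes described here are the union of 33 unigenes that the study filed under ethylene in its list of hormone genes and 26 that it filed under the AP2 family in its list of transcription factors. The lists shared 25 unigenes, and the unigene named TINY was the one found in the AP2 list alone. They are 34 of the 173014 unigenes in the deposited tables, a unigene being an assembled transcript cluster that stands for a gene. Both lists were drawn up by the study from unigenes that differed between the same libraries, so that the differences given below describe the members and carry no test.

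Plants of cultivar RY2 were germinated for 3 d, pre-cultured in nutrient solution for 14 d and then kept for 21 d at 0 μM KH2PO4 (LP) or 250 μM KH2PO4 (HP, titled CK in the labels), and RNA-seq was run on 3 root libraries of each treatment. The phosphorus field of the labels gives these doses the other way round, and the doses of the paper were used. One label text mentions leaves, but roots are given in the paper and in the field for tissue, and the label could not be checked because no root-defining markers could be listed from the annotation used. The libraries cover 1 cultivar at 1 time point. Levels are the deposited FPKM values, which are estimated read counts scaled to unigene length and library size. In such bulk root samples, fewer cells of a type and less RNA per cell cannot be told apart.

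Ethylene is sensed by membrane receptors such as ETR1, ERS1 and EIN4, which repress the pathway through the kinase CTR1 in the absence of the hormone. When ethylene binds, the repression ends, EIN2 passes the signal on, and factors of the EIN3 and EIN3-like (EIL) family activate genes including those of ERF transcription factors. ERF and DREB proteins carry a single AP2 domain, while proteins of the ANT, PLETHORA and RAP2-7 kind carry a repeated one and act mainly in growth and development, despite the words ethylene-responsive in their database names. These roles come mostly from Arabidopsis. The members were named from their best database matches, mostly in soybean and other legumes, and their function in stylo was not measured.

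Among the 8 unigenes named after receptors, EIN2 or EIN3-like factors, here called signalling unigenes, 7 were lower under LP. Of these 7, ETR1 Cluster-8255.77634 has a mixed annotation, described below. By contrast, 17 of the 26 AP2-domain factors were higher and 9 lower. Over all members, 18 were higher and 16 lower under LP. The receptors split into 1 higher and 4 lower, the EIN2 and both EIN3-like unigenes were lower, the ANT and PLETHORA type split into 6 higher and 1 lower, RAP2-7 into 5 higher and 1 lower, and the ERF and DREB type into 6 higher and 7 lower. Calls required a Benjamini-Hochberg adjusted p below 0.05 from edgeR's quasi-likelihood test together with a fitted log2 fold change of 1 or more in either direction. Of the 34 members 32 were called, beside 13.2% of the 62040 unigenes tested. The called members were 16 higher and 16 lower, beside 6.09% and 7.1% of all unigenes. The LP and HP libraries did not overlap in any of the 34 members, beside 42.4% of all unigenes tested. Since the members were listed on this contrast, nothing is read from these shares. The median size of the fitted log2 fold change was 1.63 over the members and 0.58 over all unigenes tested.

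Throughout, the size of a difference is given as the mean log2 CPM under LP minus that under HP, with a prior count of 2 and the standard error (SE) from the spread of 3 libraries in each treatment. In the plot of these differences by role, the values ranged from -4.32 for an ETR1 unigene to 3.85 for an ANT unigene. The widest errors belonged to members with few or no reads in 1 treatment.

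**Figure D1:**
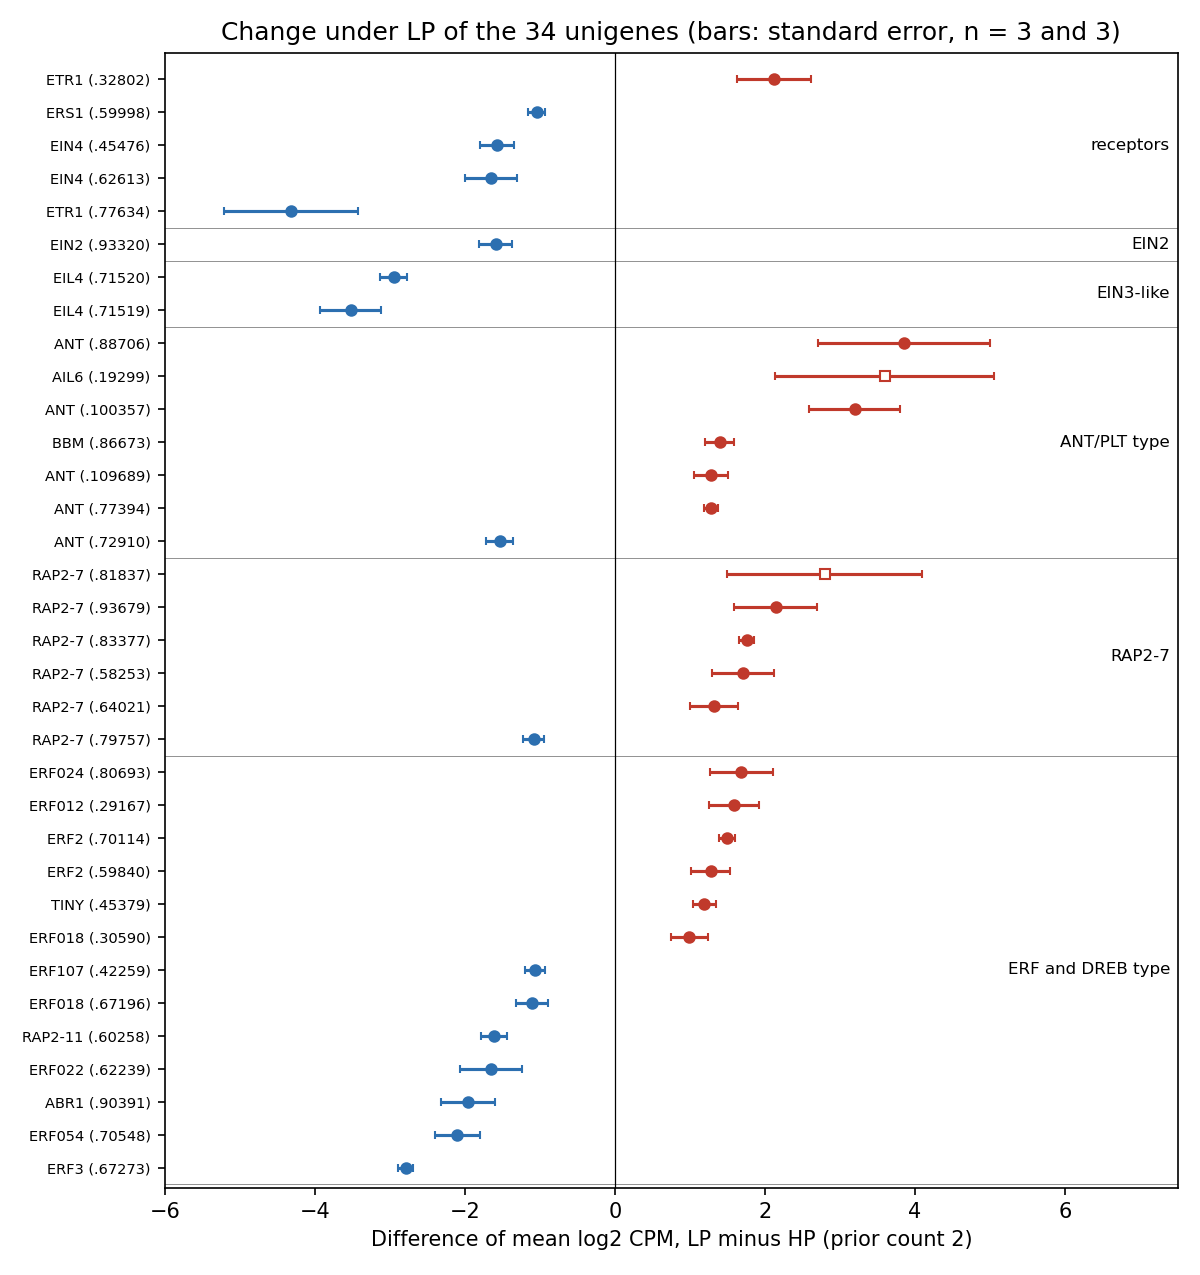
Difference of mean log2 CPM (LP minus HP, prior count 2) of the 34 unigenes, grouped by role and labelled by name and the last part of the identifier. Points are differences and bars their standard errors (n = 3 libraries per treatment), red is higher and blue lower under LP, and the 2 open squares mark members that were not called. Of the 8 signalling unigenes 7 lie left of 0, and of the 13 ANT, PLETHORA and RAP2-7 type unigenes 11 lie right of it.

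The receptor unigenes moved in both directions. The sensor ERS1 (Cluster-8255.59998), a receptor without a receiver domain, stood at 6.39, 6.12 and 7.68 FPKM under LP and at 14.15, 13.85 and 14.04 FPKM under HP. The HP libraries lay close together and all above the LP libraries, a log2 difference of -1.04 ± 0.11 (SE, n = 3 and 3). In all, 2 unigenes matched EIN4, a receptor of the second subfamily. The more abundant one (Cluster-8255.45476) stood at 11.13, 10.26 and 14.30 FPKM under LP and at 39.39, 28.25 and 40.54 FPKM under HP, a difference of -1.57 ± 0.23. The other (Cluster-8255.62613) stood at 0.78, 0.73 and 0.72 FPKM under LP and at 3.22, 1.49 and 2.98 FPKM under HP, a difference of -1.65 ± 0.35. Both EIN4 unigenes had their lowest HP value in HP 2 and were nonetheless above every LP library there. They differed in length, with an effective length of 565 bases for the abundant one and 3770 bases for the other. The summed FPKM of both was 3.06-fold higher under HP, and the abundant one held 94.0% of the sum under LP and 93.5% under HP. In normalized counts, which are not scaled to length, it held 70.2% under LP and 68.7% under HP. In both units their proportion hardly differed between treatments.

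The unigenes named ETR1, after the first ethylene receptor identified in Arabidopsis, went in opposite directions. Cluster-8255.32802 was the one signalling unigene higher under LP, at 14.48, 15.70 and 13.09 FPKM against 1.92, 6.21 and 2.58 FPKM under HP. HP 2 was the highest HP library, and the log2 difference was 2.12 ± 0.49. Its effective length was 485 bases, which is short for a receptor transcript. Cluster-8255.77634 was at 0 in every LP library and at 0.47, 0.90 and 0.10 FPKM under HP. These HP values rested on 138 reads, and against 3 reads over the LP libraries the unigene was at least 58.9-fold lower under LP. Its domain annotation names enolase domains beside those of a receptor, and whether its reads came from a receptor transcript was not tested. Its effective length was 5779 bases, far longer than that of the other. Because of this gap in length the sum of both depended on the unit, being 3.55-fold higher under LP in FPKM and 1.55-fold in normalized counts, where LP and HP libraries overlapped. Leaving out HP 2 moved the fitted log2 fold change of Cluster-8255.32802 from 2.02 to 2.70 and that of Cluster-8255.77634 from -8.73 to -7.98, values that depend on the prior count because the LP libraries had no reads.

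The unigenes named EIN2 and EIL4, 3 in all, were lower under LP. EIN2 (Cluster-8255.93320), the membrane protein that carries the signal towards the nucleus, stood at 4, 4.19 and 4.15 FPKM under LP and at 13.83, 9.28 and 15.55 FPKM under HP. The LP libraries were nearly equal and the HP libraries more scattered, again with HP 2 lowest, and the difference was -1.59 ± 0.22. Likewise, 2 unigenes matched EIL4, a putative member of the EIN3-like family. Cluster-8255.71519 stood at 2.61, 4.08 and 6.92 FPKM under LP and at 48.55, 50.31 and 49.39 FPKM under HP, a difference of -3.53 ± 0.41. Cluster-8255.71520 stood at 0.71, 0.79 and 0.82 FPKM under LP and at 5.72, 5.57 and 8 FPKM under HP, a difference of -2.95 ± 0.18. In the abundant EIL4 unigene the scatter lay under LP, where LP 3 was highest, while the HP libraries were nearly equal. Their summed FPKM was 10.5-fold higher under HP, at 55.8 ± 1.56 against 5.31 ± 2.24 (SD, n = 3 each), and the abundant one held 88.5% of it under HP and 83.9% under LP. EIL4 thus had the largest difference among signalling unigenes with reads in every library.

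**Figure D2:**
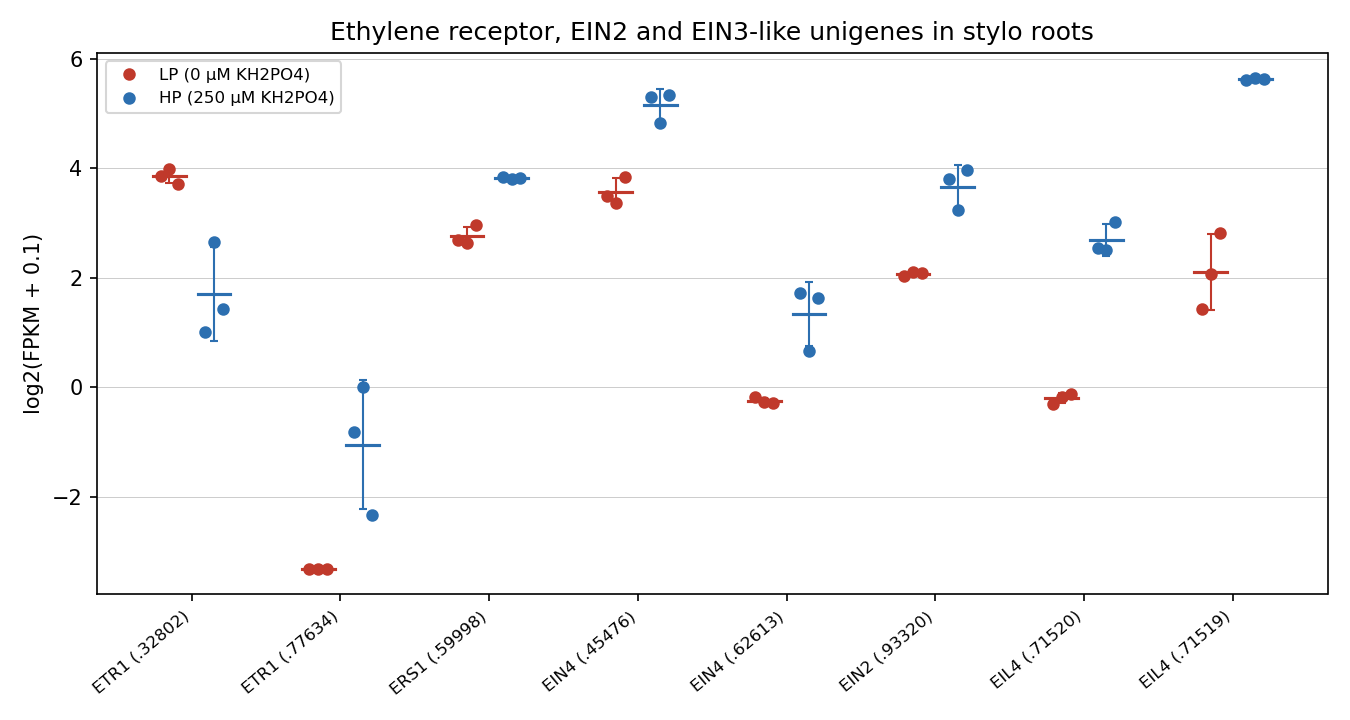
FPKM of the 8 receptor, EIN2 and EIN3-like unigenes on a log2(FPKM + 0.1) axis, 1 point per library in the order of replicate numbers, with LP in red, HP in blue, the mean of the log values as a line and their SD as a bar (n = 3). The HP points lie above the LP points in 7 unigenes and below them in ETR1 Cluster-8255.32802, and ETR1 Cluster-8255.77634 sits at the floor in every LP library.

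The ANT and PLETHORA type comprised 5 unigenes named ANT, 1 named AIL6 and 1 named BBM. In Arabidopsis ANT promotes organ growth, and AIL6 and BBM are PLETHORA-type proteins that act in root and shoot meristems and, for BBM, in embryo formation. The most abundant, ANT Cluster-8255.77394, stood at 72.66, 66.89 and 69.67 FPKM under LP and at 27.15, 32.36 and 27.62 FPKM under HP, a difference of 1.28 ± 0.10. BBM (Cluster-8255.86673) stood at 35.40, 48.02 and 29.53 FPKM under LP and at 13.29, 14.38 and 14.38 FPKM under HP, a difference of 1.40 ± 0.19. ANT Cluster-8255.109689 stood at 16.47, 17.44 and 11.99 FPKM under LP and at 5.12, 5.82 and 7.72 FPKM under HP, a difference of 1.28 ± 0.22. In all 3 the lowest LP library stayed above the highest HP library.

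Among the remaining ANT and PLETHORA type unigenes 3 were sparse under HP. ANT Cluster-8255.88706 stood at 6.85, 5.92 and 4.67 FPKM under LP and at 1.15, 0.55 and 0 FPKM under HP, a difference of 3.85 ± 1.15. ANT Cluster-8255.100357 stood at 2.55, 2.62 and 2.50 FPKM under LP and at 0.43, 0.23 and 0 FPKM under HP, a difference of 3.19 ± 0.61. AIL6 (Cluster-8255.19299) stood at 1.87, 1.93 and 1.98 FPKM under LP and at 1.20, 0 and 0 FPKM under HP. All 38 HP reads of AIL6 were in HP 1, its difference was 3.60 ± 1.46, and it was not called. Without HP 1 the fitted log2 fold changes were 9.04 for AIL6, which then had no HP reads and whose value depends on the prior count (2.25 with it), 4.49 for Cluster-8255.88706 (3.35 with it) and 4.41 for Cluster-8255.100357 (3.52 with it). Without HP 3 those of AIL6 and Cluster-8255.88706 were 1.66 and 2.77.

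A single ANT unigene, Cluster-8255.72910, was lower under LP. Its best match was named isoform X1 of an ANT-like soybean protein. The best matches of Cluster-8255.88706 and Cluster-8255.100357 were named isoform X2. Cluster-8255.72910 stood at 2.93, 3.19 and 3.96 FPKM under LP and at 11.72, 8.63 and 9.68 FPKM under HP, a difference of -1.54 ± 0.18. Its share of all ANT FPKM was 3.49% ± 0.71 under LP and 21.78% ± 3.80 under HP (SD, n = 3 each). The summed FPKM of the 5 ANT unigenes was nonetheless 2.10-fold higher under LP, at 96.8 ± 4.38 against 46.1 ± 1.35, since Cluster-8255.77394 held 72.1% of it under LP and 63.0% under HP.

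RAP2-7, known in Arabidopsis as TOE1, is a repressor of flowering and a target of the microRNA miR172. The most abundant of its unigenes by reads, Cluster-8255.83377, stood at 24.98, 24.08 and 28.75 FPKM under LP and at 7.93, 7.42 and 7.87 FPKM under HP. Both groups were narrow, and the difference was 1.75 ± 0.10. Cluster-8255.93679 stood at 5.32, 4.42 and 7.41 FPKM under LP and at 1.34, 0.59 and 2.19 FPKM under HP, a difference of 2.14 ± 0.55. Cluster-8255.64021 stood at 2.22, 1.96 and 2.91 FPKM under LP and at 1, 1.22 and 0.65 FPKM under HP, a difference of 1.32 ± 0.32. In these the groups were closer but did not overlap.

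The other RAP2-7 unigenes were sparser or went the other way. Cluster-8255.58253 stood at 0.98, 1.58 and 0.93 FPKM under LP and at 0.32, 0.21 and 0.53 FPKM under HP, a difference of 1.71 ± 0.42. Cluster-8255.81837 stood at 1.14, 0.81 and 1.49 FPKM under LP and at 0.57, 0.22 and 0 FPKM under HP, a difference of 2.79 ± 1.31. The latter was not called, and its fitted log2 fold change of 2.12 became 3.43 without HP 1 and 1.52 without HP 3. Cluster-8255.79757 was lower under LP, at 16.85, 15.16 and 16.30 FPKM against 31.68, 31.35 and 41.99 FPKM under HP, a difference of -1.09 ± 0.14. Its best match was named isoform X3 of a RAP2-7-like soybean protein. That of Cluster-8255.93679 was named isoform X4, and those of the other RAP2-7 unigenes isoform X1.

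Whether RAP2-7 as a whole was higher under LP depended on the unit. The summed FPKM of the 6 unigenes was 52.4 ± 4.96 under LP and 45.7 ± 6.59 under HP (SD, n = 3 each), and the libraries overlapped. In normalized counts, which are not scaled to length, the sum was 2025 ± 251 under LP and 813 ± 53.6 under HP, 2.49-fold higher under LP and without overlap. The effective length of Cluster-8255.79757 was 380 bases against 3035 bases for Cluster-8255.83377, so the same number of reads gives it a much higher FPKM. Its share was 76.4% of FPKM under HP and 30.8% under LP, but 30.8% of normalized counts under HP and 5.78% under LP. In both units its share was higher under HP and that of Cluster-8255.83377 higher under LP. The ANT sum did not depend on the unit in this way, at 1.98-fold in normalized counts.

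**Figure D3:**
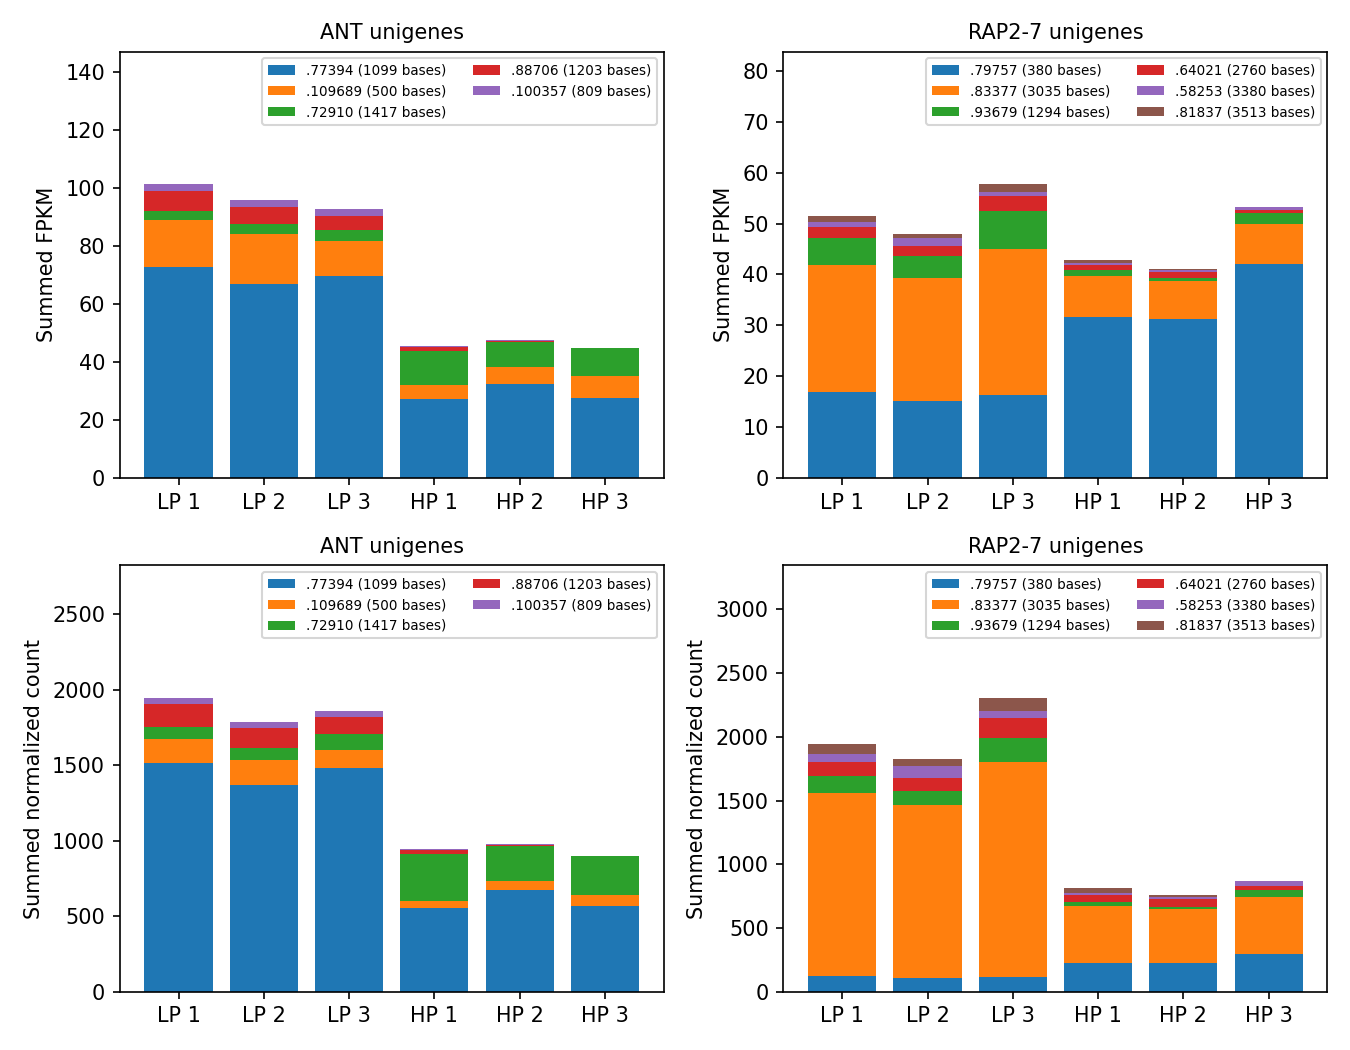
Summed FPKM (upper panels) and summed normalized counts (lower panels) of the 5 ANT and the 6 RAP2-7 unigenes in each of the 6 libraries, stacked by unigene with the last part of its identifier and its effective length. The ANT bars are taller in every LP library in both units, whereas the RAP2-7 bars overlap between treatments in FPKM and separate in normalized counts.

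The ERF and DREB type included the most abundant member. ERF2 Cluster-8255.70114, named after an ethylene-responsive factor, stood at 753.07, 622.94 and 719.66 FPKM under LP and at 238.49, 247.70 and 266.50 FPKM under HP, a difference of 1.49 ± 0.11. Its lowest LP library was far above its highest HP library. The other ERF2 unigene, Cluster-8255.59840, stood at 7.72 ± 0.87 FPKM under LP and at 3.28 ± 0.96 FPKM under HP (SD, n = 3 each), a difference of 1.27 ± 0.26, so both ERF2 unigenes were higher under LP. Cluster-8255.70114 held 98.9% of ERF2 FPKM under LP and 98.7% under HP. It also set the total of the members. The summed FPKM of all 34 was 1179 ± 102 under LP and 870 ± 43.5 under HP, and without Cluster-8255.70114 it was 480 ± 36.2 under LP and 619 ± 29.2 under HP, so that the order of the treatments turned round.

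TINY, ERF012 and ERF024, also of the ERF and DREB type, were higher under LP, and ERF022 was lower. TINY (Cluster-8255.45379), which links growth and stress responses in Arabidopsis, stood at 78.33, 69.89 and 89.34 FPKM under LP and at 31.12, 38.66 and 35.17 FPKM under HP, a difference of 1.19 ± 0.15. ERF012 (Cluster-8255.29167) stood at 77.25, 39.22 and 61.24 FPKM under LP and at 16.13, 18.26 and 23.51 FPKM under HP, a difference of 1.58 ± 0.34. ERF024 (Cluster-8255.80693) stood at 20.54, 8.97 and 11.83 FPKM under LP and at 3.29, 3.45 and 5.57 FPKM under HP, a difference of 1.68 ± 0.42. In these the LP libraries scattered more than the HP libraries. ERF022 (Cluster-8255.62239) went the other way, at 9.55, 11.33 and 23.22 FPKM under LP and at 39.94, 47.59 and 43.84 FPKM under HP, a difference of -1.66 ± 0.41, with LP 3 set apart from the other LP libraries.

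ERF018, known in Arabidopsis as ORA47 and linked to jasmonate synthesis, had a unigene in each direction. Cluster-8255.30590 stood at 18.35, 10.68 and 14.60 FPKM under LP and at 7.53, 6.42 and 7.59 FPKM under HP. Its log2 difference was 0.99 ± 0.24, with a fitted log2 fold change of 1.03 just past the threshold of 1. Cluster-8255.67196 stood at 5.69, 4.11 and 5.96 FPKM under LP and at 10.57, 10.49 and 13.35 FPKM under HP, a difference of -1.11 ± 0.21. The sum of both was 19.8 ± 4.67 FPKM under LP and 18.7 ± 2.07 FPKM under HP (SD, n = 3 each), and the libraries overlapped. The share of Cluster-8255.30590 was 73.2% ± 2.79 under LP and 38.6% ± 2.73 under HP. The effective lengths were 1001 and 979 bases, and the shares in normalized counts were nearly the same, at 73.7% and 39.2%. The composition of ERF018 therefore differed between treatments while its summed level overlapped.

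Among the ERF and DREB type unigenes that were lower under LP, ERF3 had the largest difference. ERF3 proteins carry a repression motif and reduce transcription of their targets. ERF3 (Cluster-8255.67273) stood at 24.42, 27.63 and 29.65 FPKM under LP and at 179.87, 194.78 and 195.94 FPKM under HP, a difference of -2.79 ± 0.10. It was the second most abundant member under HP, after ERF2. ERF054 (Cluster-8255.70548) stood at 3.44, 2.46 and 4.91 FPKM under LP and at 15.41, 14.66 and 15.52 FPKM under HP, a difference of -2.10 ± 0.30.

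The other lower unigenes included a pair with known roles in abscisic acid and potassium responses. ABR1 (Cluster-8255.90391), a repressor of abscisic acid responses in Arabidopsis, stood at 1.55, 0.79 and 1.21 FPKM under LP and at 5.63, 3.31 and 5.56 FPKM under HP, a difference of -1.96 ± 0.36. RAP2-11 (Cluster-8255.60258), which acts in the response of Arabidopsis roots to low potassium, stood at 5.25, 6.63 and 7.55 FPKM under LP and at 18.35, 20.83 and 21.38 FPKM under HP, a difference of -1.62 ± 0.17. ERF107 (Cluster-8255.42259), a repressor of wax synthesis in Arabidopsis, stood at 15.5 ± 2.01 FPKM under LP and at 32.8 ± 2.57 FPKM under HP (SD, n = 3 each), a difference of -1.07 ± 0.14.

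**Figure D4:**
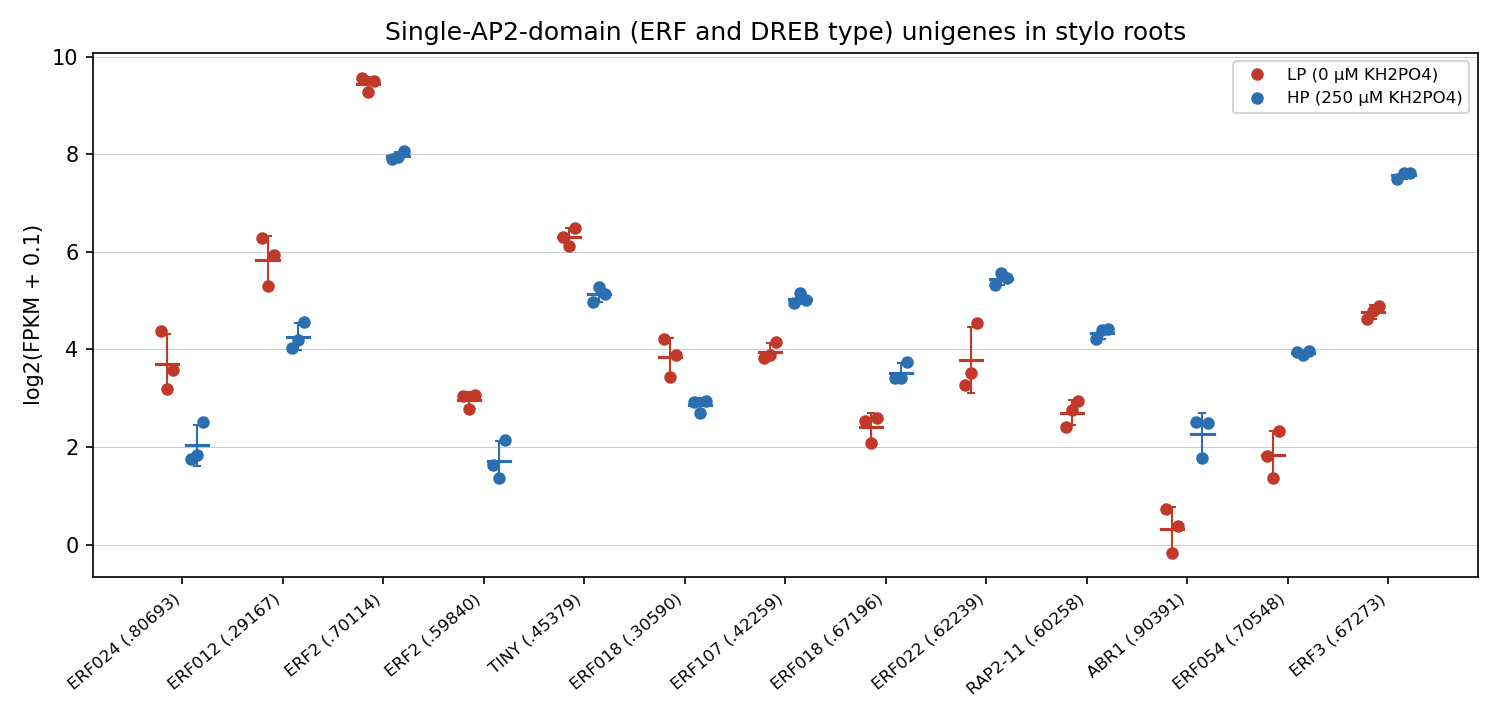
FPKM of the 13 ERF and DREB type unigenes on a log2(FPKM + 0.1) axis, ordered by fold change, 1 point per library in the order of replicate numbers, with LP in red, HP in blue, the mean of the log values as a line and their SD as a bar (n = 3). The first 6 unigenes are higher under LP and the last 7 lower, with ERF2 Cluster-8255.70114 at the top of the axis and ERF3 at the right with a log2 difference of -2.79.

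The spread among libraries of a treatment followed a partly shared order. LP 3 was the highest LP library in 18 members and LP 2 the lowest in 17. Deviations were taken from the mean of the other libraries of the treatment. Their median over the members (log2) was 0.18 in LP 3 and -0.16 in LP 2, against 0.07 and -0.01 over all unigenes tested. Under HP the members' medians lay between -0.07 and 0.06. Over all unigenes, the first principal component (49.5% of the variance) separated the treatments and the second (14.8%) set HP 2 apart. Rank correlations between libraries were 0.892 to 0.915 within a treatment and 0.785 to 0.814 between treatments.

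The calls of single members depended on the libraries used. Without LP 1, 10 calls were lost, those of ETR1 Cluster-8255.32802, ERS1, ANT Cluster-8255.100357 and Cluster-8255.88706, RAP2-7 Cluster-8255.58253, Cluster-8255.64021 and Cluster-8255.93679, ERF018 Cluster-8255.30590, ERF022 and ERF107. Without HP 1, 11 calls were lost and that of AIL6 was gained, and the losses included both ETR1 unigenes, ERF2 Cluster-8255.59840 and ERF024. Leaving out LP 2, LP 3, HP 2 or HP 3 lost 7, 4, 7 and 6 calls. Over all unigenes tested, 6055 were called without LP 1 and 5623 without HP 1, against 8183 with all libraries. The calls that held in all 6 of these fits were those of 16 members, among them EIN2, both EIL4, both EIN4, ERF3, ERF2 Cluster-8255.70114 and RAP2-7 Cluster-8255.83377. Of the higher ANT, PLETHORA and RAP2-7 type unigenes, only ANT Cluster-8255.77394, BBM and RAP2-7 Cluster-8255.83377 held in all 6. ERF022 and ANT Cluster-8255.100357 kept their call in 1 of the 6 fits. ETR1 Cluster-8255.32802, ANT Cluster-8255.88706, RAP2-7 Cluster-8255.58253 and Cluster-8255.64021, and ERF018 Cluster-8255.30590 kept it in 2. No fold change turned its direction. For ERF018 Cluster-8255.30590 the fitted log2 fold change ranged from 0.84 to 1.23 over these fits, and for ERS1 from -1.16 to -0.96.

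Some unigenes in the annotation rows used had photosynthesis descriptions or matched other organisms. These rows come from the study's table of unigenes that differed between the same libraries, so unigenes that did not differ could not enter either list, and that the listed ones differ says nothing more. Of 4 photosynthesis unigenes, 3 matched algae and are also in the second list, and the one with a land-plant match, photosystem I subunit III (Cluster-8255.71546), stood at 36.12, 45.20 and 33.15 FPKM under LP and at 0 in every HP library. The 22 unigenes whose best matches were algae or oomycetes went both ways. Of these, 16 had no LP read and summed to 27.4 ± 12.03 FPKM under HP (SD, n = 3), with the highest value, 41.2 FPKM, in HP 2. The other 6, which include the 3 algal photosynthesis unigenes, summed to 10.4 ± 3.35 FPKM under LP and 0.197 ± 0.081 FPKM under HP (SD, n = 3 each). ETR1 Cluster-8255.77634 also had no LP read and was highest in HP 2, although its best matches were plant receptors. Its lowest HP value was in HP 3, at 0.10 FPKM, whereas the sum of the 16 unigenes was lowest in HP 1, at 18.8 FPKM. The part of leaf tissue or other organisms in the results was not tested.

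Outside the members, 4 further unigenes had an ethylene or AP2-domain description in the annotation rows used. A RAP2-11 unigene (Cluster-8255.95871) had 56 HP reads and was at 0 in every LP library. The best match of Cluster-8255.109102 was a soybean protein named dehydration-responsive element-binding protein 3-like. This unigene stood at 0.64, 1.98 and 0.64 FPKM under LP and was at 0 in every HP library. Cluster-8255.78005 matched a protein named as a homologue of ACC oxidase, not that ethylene-forming enzyme itself. It was at 0 under LP and at 4.63, 0 and 5.04 FPKM under HP, so that HP 2 did not differ from the LP libraries. The S-adenosylmethionine synthase unigene (Cluster-22675.0) was at 0 under LP and at 0.90, 1.97 and 1.05 FPKM under HP, and its best match was an oomycete. Since these rows hold unigenes that differed between the same libraries, the direction of each is a description. Of these 4, 3 passed the count filter and were called, beside 13.2% of all unigenes tested, and nothing is read from this count.

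The same hormone list held 22 auxin, 5 abscisic acid and 3 brassinosteroid unigenes, chosen on the same contrast. Of these 30, 29 were called (16 higher, 13 lower), beside 13.2% of all unigenes tested (6.09% higher, 7.1% lower). Nothing is read from these shares. By direction alone, 16 of the 30 were higher under LP and 14 lower. Their median size of the fitted log2 fold change was 1.33, beside 1.63 for the 34 ethylene and AP2 members. The difference between the lists was not tested. The members had a median of 9.20 FPKM against 2.59 FPKM over all unigenes tested, at a similar median effective length of 1207 against 1233 bases. Since the members were listed because they differed between these libraries, nothing is read from their higher median level.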

How the data were processed

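RNA-seq libraries of RY2 roots were grouped by their titles (3 LP, 3 HP). Per the paper's methods, the authors assembled the reads of all samples with Trinity and estimated expression with RSEM, and the submitters' processing notes name Bowtie2 2.2.3. The deposited expected counts are per unigene, not normalized and not whole, because RSEM shares out ambiguous reads. The deposited FPKM are the same estimates scaled for length and library size. Members of 1 name that share sequence are therefore uncertain. Of the 34 members, 10 had whole counts in every library. Whether counting used strand is not given, and the labels and the paper differ on whether the kit kept strand.

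Counts were rounded. Libraries held 20643446 to 21784888 counts under LP and 15586353 to 17821019 under HP. Unigenes were filtered by filterByExpr (minimum count 10, 62040 of 173014 kept), scaled by TMM factors (0.975 to 1.01) and fitted with edgeR 4.0.16 (limma 3.58.1, R 4.3.3), with Benjamini-Hochberg adjustment over all unigenes. Libraries of 1 treatment differed beyond sampling noise (chi-square per degree of freedom 5.84 to 19.7), and the common biological coefficient of variation was 0.420. Effective lengths were recovered from count, FPKM and library total. Those of single members came from the library with the highest FPKM. The median lengths over members and over all unigenes tested used a median over libraries. The lower bound on a fold took 3 reads for a treatment without reads and covers counting error only. Alternatives were DESeq2 1.42.0, other scalings, filters and thresholds, limma on log2(FPKM + 1) and log2(FPKM + 0.1), the replicate number as a block, unrounded counts, robust dispersions and each library left out.

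All members were named. Values per library were given for the signalling unigenes, for names with unigenes in both directions, for the 5 most abundant of the rest, and for the 3 largest increases and 3 largest decreases among the remainder. Members, lists and rules were chosen with earlier results of these data known. The annotation used covered 1272 rows of the study's table of unigenes that differed between these libraries, so lists drawn from it hold no unigene that did not. No sequences were used.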

Additional observations from a re-analysis of the deposited data

How the results depend on the processing

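All 34 members kept their direction in the 19 alternatives, wherever a fold change could be fitted. The count of 32 called members (16 higher, 16 lower) was unchanged with DESeq2, other scalings, unrounded counts and robust dispersions. It was 31 with either other filter on low counts, 27 with limma on log2(FPKM + 1) and 31 on log2(FPKM + 0.1). Over all unigenes tested the main fit called 8183. That number was 7019 without a filter and 7780 with at least 1 CPM in 3 libraries. With limma it was 7396 and 9972. The count of called members was 8 (2 higher, 6 lower) when folds were tested against a minimum of 1 on the log2 scale. At an adjusted p under 0.01 it was 19, with 6 higher. Calls over all 62040 unigenes tested fell as well, to 3053 in the former setting and 4214 in the latter. Leaving out single libraries gave 22 to 28 called, 8 to 13 of them higher and 13 to 16 lower. In the same fits 5586 to 8183 of all unigenes tested were called. Without a filter the median of all unigenes shifted by 0.11 (log2).

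With the replicate number as a block, 26 members were called, of which 10 were higher. Of all 62040 unigenes tested, 5167 were called in this fit, against 8183 without the block. Pairing was not shown by the data, since deviations of same-numbered libraries correlated at -0.01, 0.04 and 0.05.

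In normalized counts the log2 ratio of the sums was 0.99 for ANT (1.07 in FPKM), 0.63 for ETR1 (1.83) and 1.32 for RAP2-7 (0.20). In summed FPKM, the ETR1 log2 ratio ranged from 1.56 to 2.51 without single libraries, and that of ERF018 from -0.0775 to 0.258, negative without LP 1. The FPKM share of EIN4 Cluster-8255.45476 was 0.48 percentage points higher under LP. Without single libraries this difference ranged from -0.12 (without LP 3, and -0.07 without HP 1) to 1.21. That of Cluster-8255.62613 ranged from -1.21 to 0.12 (0.07 without HP 1). The share of RAP2-7 Cluster-8255.64021 was 2.30 points higher under LP in FPKM and -0.0836 in counts. The causes were not tested, apart from the unit, where differences in length set the weights. Members with few reads in 1 treatment had the least certain fold changes.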

Other observations

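Under LP, 5 members had LP 1 highest and LP 2 lowest and were highest under HP in HP 3. These were ERF012, ERF018 Cluster-8255.30590, ERF024, ERF2 Cluster-8255.70114 and RAP2-7 Cluster-8255.79757. In LP 1 and LP 2, ERF012 stood at 77.25 and 39.22 FPKM, ERF018 at 18.35 and 10.68 FPKM, and ERF024 at 20.54 and 8.97 FPKM. The gap was narrower in ERF2, at 753.07 and 622.94 FPKM, and in RAP2-7, at 16.85 and 15.16 FPKM. The pattern was chosen after the values had been seen.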
